A study of Mus musculus with 4 samples.

Results

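The genes described here are 10 genes of glycolysis and of the response to low oxygen (Gapdhs, Gapdh, Ldha, Pgk1, Hk2, Pfkfb3, Slc2a1, Hif1a, Vegfa and Car9), measured in inflamed mouse ears with and without RelA in the epidermis. Every non-control spot that carries 1 of these gene names was taken, which gave 24 spots and 23 probes of the 55681 probes on the array. Gapdhs, a sperm form of the enzyme glyceraldehyde-3-phosphate dehydrogenase, was chosen by its log2 fold change, which was higher in the mutants at 2 probes, so its difference is a description and no test is given for it. The other 9 genes were listed for their roles, with earlier results of these data known.

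RNA came from ear tissue of 4 mice, taken 48 h after the ears were treated with 2,4-dinitrofluorobenzene (DNFB), a hapten that provokes contact allergy. Wild-type mice 1 and 2 carried the floxed alleles RelAfl/fl alone. Mutant mice 1 and 2, K14Cre RelAfl/fl and named RelAE-MUT in the labels, carried the same alleles with a Cre recombinase under the keratin 14 promoter, which is active in basal keratinocytes. Epidermal cells that descend from these inherit the deletion, while cell types of other origin in the ear are not its target. All 4 ears had been treated, so no untreated ear serves as a baseline, and only the mutants carry the recombinase, whose own effects and the deletion cannot be told apart. The labels give no age. They call the 4 samples separate mice of 2 groups, and the p-values measure the spread between those mice.

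Each ear gave 1 one-colour array with 59305 non-control spots, of which between 61.2% and 64.3% were well above background and 0 were saturated. A level below is the log2 intensity of a probe minus the 75th percentile of its array, and a log2 fold change is the mutant mean minus the wild-type mean with limma's moderated standard error (SE, n = 2 mice a group). Levels of different probes are not compared, since probes differ in how brightly they bind. The array of mutant mouse 2 has a damaged corner (rows 1 to 120 and columns 133 to 164 of the grid) that holds 92 spots that were dark there alone (by at least 2 on the log2 scale), with 3 such spots elsewhere. Of the 24 spots 1 lies in that corner, for 1 of the 8 Gapdh probes, and it was not dark there. All 24 spots were well above background on all 4 arrays and 0 carried an outlier flag. The keratinocyte markers Krt5, Krt14 and Krt10 were above background on all 4 arrays.

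Glycolysis breaks glucose down to pyruvate in the cytosol. Glucose enters through carriers such as Slc2a1, hexokinases such as Hk2 trap it as a phosphate, and Pfkfb3 makes the fructose bisphosphate signal that speeds up the committed step. Gapdh and Pgk1 carry out the oxidation and the first ATP-forming step, and Ldha turns pyruvate to lactate, which lets the pathway run when oxygen is short. Hif1a is the oxygen-regulated subunit of the hypoxia-inducible factor HIF-1, whose protein rather than its mRNA is controlled by oxygen. HIF-1 switches on the glycolytic genes together with the vessel growth factor Vegfa and the carbonic anhydrase Car9. Gapdhs replaces Gapdh in the tail of spermatozoa and is classed as a gene of late spermatogenesis.

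The probes of Gapdhs and Gapdh are shown because a reading of the sperm isoform depends on which of the 2 genes a probe matches. The first Gapdhs probe (mm9, chr7:31514906-31514965, minus strand) has a reading frame with no stop until its last 3 bases, the stop codon in capitals. The second (chr7:31514799-31514858) holds a polyadenylation signal, in capitals in the 30 bases printed of it. The first of the Gapdh coding probes (chr6:125113312-125113371, minus strand) and the second, which the file places at chr8:94212520-94212579, each have an open frame. Both have 2 frames without an inner stop, so an open frame alone does not show that a probe reads Gapdh coding sequence.
Gapdhs, end of the reading frame: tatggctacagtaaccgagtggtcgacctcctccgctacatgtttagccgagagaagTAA
Gapdhs, 3′ end: ccaccgggtcaacaatgaAATAAAaacgag
Gapdh, first coding probe: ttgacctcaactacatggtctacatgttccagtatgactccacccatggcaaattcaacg
Gapdh, second coding probe: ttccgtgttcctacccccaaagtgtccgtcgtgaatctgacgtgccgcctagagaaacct

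Gapdh has 3 probes over the polyadenylation signal at its 3′ end that differ by single bases. In each, the 30 bases around the polyadenylation signal (capitals) are given. The first lies at chr6:125111869-125111928 on the minus strand and the last at chr6:125111878-125111937. The second was designed on another cDNA and is placed by the file at chr7:59003199-59003257. Counted from 1 at the 5′ end of the 30 bases, the second differs from the first by C28T, and the last by C2T, C6T and G25T.
Gapdh 3′ end, first probe: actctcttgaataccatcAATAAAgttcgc
Gapdh 3′ end, second probe: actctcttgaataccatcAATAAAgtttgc
Gapdh 3′ end, last probe: attcttttgaataccatcAATAAAtttcgc
For 3 of the 23 probes the chromosome in the file is not that of the gene in RefSeq: these 2 Gapdh probes, at chromosomes 7 and 8, and the only Pgk1 probe, placed on chromosome 3 over 65 bases although RefSeq has Pgk1 on the X. Near-identical copies of Gapdh and Pgk1 exist in the mouse genome, so signal at these probes is uncertain as to its source. The first and the last 3′ end probes of Gapdh are placed on overlapping stretches of chromosome 6 yet differ in bases. At most 1 of them can match that stretch exactly, so the source of their signal is uncertain too.

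Gapdhs was low in both wild-type ears and several times higher in both mutant ears, at both of its probes. The first probe read -3.22 in wild-type mouse 1, -2.67 in wild-type mouse 2, -0.40 in mutant mouse 1 and -0.48 in mutant mouse 2. At the second the levels were -3.25 and -2.79 in the wild-type mice against -0.58 and -0.56 in the mutants. The 2 groups do not overlap at either probe, and the mutants lie closer together than the wild-type mice do. In processed intensity the 2 spots read 69.7 and 71.3 in wild-type mouse 1, 90.3 and 98.2 in wild-type mouse 2, 413 and 469 in mutant mouse 1, and 400 and 423 in mutant mouse 2. The log2 fold changes were 2.50 ± 0.21 and 2.45 ± 0.19, which are 5.67-fold and 5.46-fold. These are the values for which Gapdhs was chosen. Of all 33664 probes tested, 61 (0.181%) had a log2 fold change at least as high as the lower of the 2, and 0.689% were higher without overlap by 1 or more. With the raw signal corrected by normexp, which adds an offset, the differences were smaller, 1.91 and 1.80.

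The genes next to Gapdhs on chromosome 7 had other patterns. Tmem147, a membrane protein of the endoplasmic reticulum whose probe begins at 31513049 in mm9, read 2.90 and 3.23 in wild-type ears against 3.08 and 3.06 in mutant ears. Atp4a, the catalytic subunit of the gastric proton pump at 31509268, was lower in the mutants, at -4.88 and -5.22 against -4.53 and -3.97 (log2 fold change -0.80 ± 0.24, adjusted p = 0.691 in limma over all probes). Sbsn (0.05 ± 0.11) and Dmkn (-0.03 ± 0.12), secreted proteins of the upper epidermis, and the transcripts Gm4883 (0.02 ± 0.11) and C630016N16Rik (0.03 ± 0.19) overlapped between the groups. None of these 6 neighbours was higher in the mutants without overlap, whereas 18.9% of all genes were. A count among 6 genes is too small to set apart from that share.

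**Figure D1:**
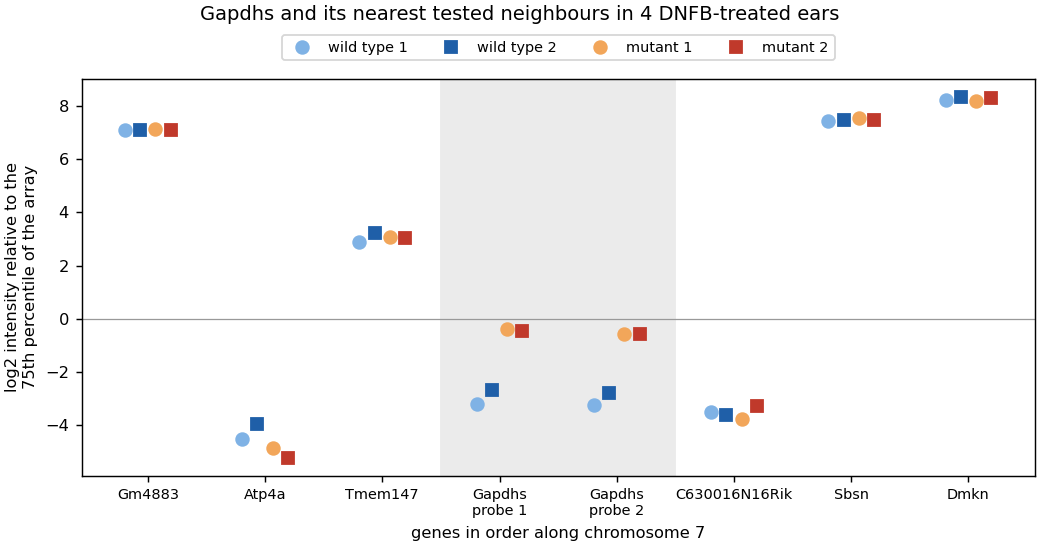
Level of Gapdhs at its 2 probes (shaded) and of the 3 nearest tested genes on each side along chromosome 7, as log2 intensity relative to the 75th percentile of the array, with 1 point for each of the 4 mice. The mutant points of Gapdhs lie near -0.5 and the wild-type points near -3, while the groups overlap at 5 neighbours and the mutants are lower at Atp4a.

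Most of the other sperm genes examined were too dim to test in these ears. Of a list of 24 sperm and testis genes, 9 passed the filter on dim probes, and 14 others were on the array but not tested. Of those 14, 12 were not well above background on any array, among them Pgk2, Ldhc and Pdha2, the sperm forms of phosphoglycerate kinase, lactate dehydrogenase and pyruvate dehydrogenase. Of the 9 tested genes, 2 were higher and 7 lower by their mean, with 0 past an adjusted p of 0.05 in limma. The protamine genes Prm1 and Prm2, which pack sperm chromatin, had -0.77 ± 0.52 and -0.10 ± 0.14, and the transition protein gene Tnp1 had -0.03 ± 0.12. Without overlap 2 were higher and 2 lower, where 18.9% and 17.4% of all genes were. The 2 higher genes were Spaca1, an acrosomal membrane protein, at -3.85 and -3.56 (wild type) against -3.44 and -2.90 (mutant), and Spata18, which also serves mitochondria in other cells. The difference of Spaca1 was 0.54 ± 0.23 (adjusted p = 0.790), and 0.51 at its other probe. Spata18, and Tekt1 among the 2 lower genes, were well above background on only 2 arrays. Each passed the filter through 1 group, so their differences are not given. The counts that include them are descriptions, since the filter favours the side on which each is counted. For the 3 tested markers of spermatogenic cells, the log2 of the summed level was -1.75 and -2.12 in the wild-type mice and -2.32 and -2.20 in the mutants.

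By the root mean square distance between profiles over the 4 arrays, each centred on its wild-type mean, the 4 genes most like Gapdhs were AA763521 (distance 0.16), Mc1r (0.43), Nkx2-9 (0.48) and Robo3 (0.50). Mc1r, the melanocortin receptor of pigment cells, was above background on all 4 arrays and read -4.16 and -3.15 in wild-type ears against -1.91 and -1.31 in mutant ears. The other 3 were not well above background in either wild-type mouse, so they passed the filter through the mutants alone. Their wild-type levels are uncertain. Since likeness to Gapdhs selects genes that are higher in the mutants, their differences have no test.

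None of the 21 probes of the other 9 genes passed an adjusted p of 0.05 in limma, where 7 of all 33664 probes (0.0208%) did, 4 of them higher (0.0119%) and 3 lower (0.00891%). Their adjusted p ranged from 0.662 to 0.998, and 1 of the 21, that of Slc2a1, reached an unadjusted p under 0.05, as did 6.56% of all those tested. By the mean, 19 were higher in the mutants and 2 lower, where 52.6% of all probes were higher. The mutant values lay above both wild-type values at 11 of the 21 probes, against 18.7% of all probes, and below them at 1, against 17.6%. The median log2 fold change of the 21 was 0.16, against 0.01 over all probes. These probes are not 21 independent readings, since 8 belong to Gapdh and 3 to Ldha, and the genes were chosen with the comparison known. In a whole ear, fewer cells of a type and less RNA per cell cannot be told apart.

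**Figure D2:**
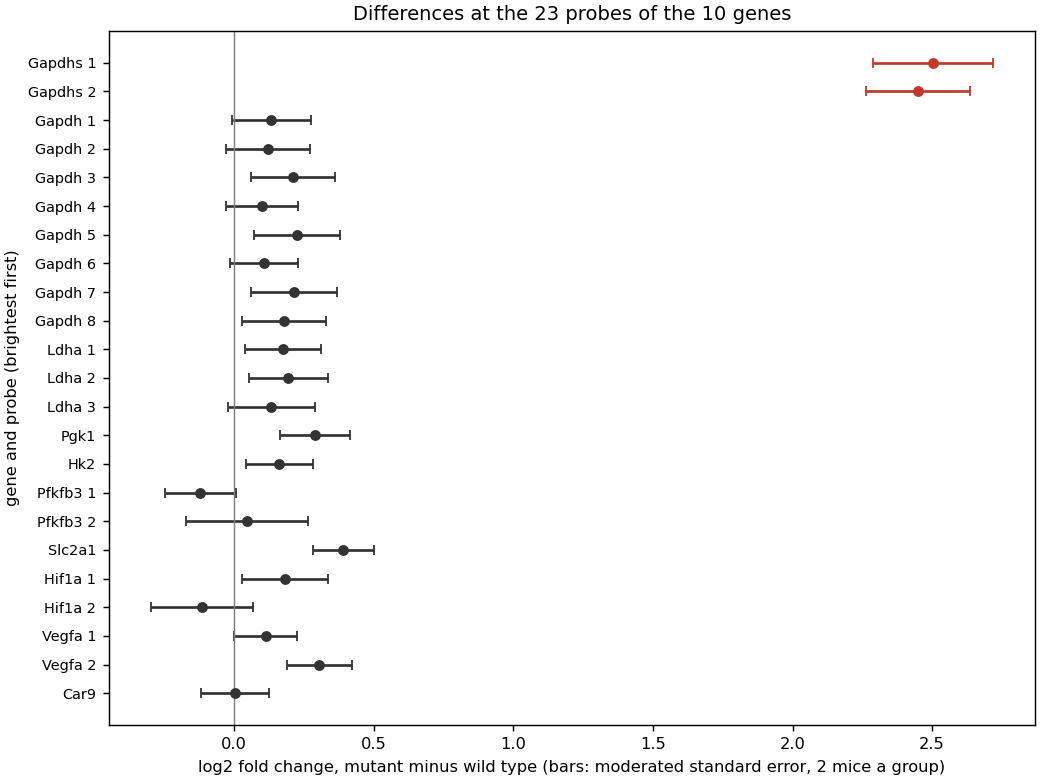
Log2 fold change, mutant minus wild type, at each of the 23 probes, with bars for the moderated standard error (2 mice a group) and probes of a gene listed with the brightest first. The 2 Gapdhs probes (red) lie at 2.50 and 2.45 and all others between -0.12 and 0.39.

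Among the genes of glucose entry and trapping, Slc2a1, the glucose carrier GLUT1 of basal keratinocytes and many other cells, had the largest difference after Gapdhs. At its only probe (mm9, chr4:118809864-118809923) it read 3.09 and 3.08 in wild-type ears against 3.44 and 3.51 in mutant ears. The wild-type mice were within 0.02 of each other and the groups did not overlap. The log2 fold change was 0.39 ± 0.11, with a 95% interval from 0.10 to 0.68 that is not adjusted for the number of probes, and an adjusted p of 0.662 in limma. It ranged from 0.36 to 0.42 when each mouse in turn was left out. Hk2, a hexokinase that binds mitochondria, read 1.59 and 1.74 in wild-type ears against 1.86 and 1.79 in mutant ears (chr6:82675056-82675115). Its difference of 0.16 ± 0.12 (adjusted p = 0.871) was about the size of the gap between the wild-type mice.

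Pfkfb3, the bifunctional enzyme that makes fructose 2,6-bisphosphate, went the other way at its brighter probe (chr2:11393453-11393512). There it read 1.52 and 1.31 in wild-type ears against 1.28 and 1.31 in mutant ears, a difference of -0.12 ± 0.13 (adjusted p = 0.899). The lower wild-type value and the higher mutant value are nearly equal. Its dim probe, placed on chromosome 2 between 11404189 and 11405602, gave 0.05 ± 0.22, with levels of -4.23 and -4.73 in the wild-type mice and -4.30 and -4.58 in the mutants that interleave.

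Gapdh, the enzyme of the oxidation step and a common reference gene, was slightly higher in the mutants by the mean at 8 of 8 probes, by 0.10 to 0.23 with SE from 0.12 to 0.15. The largest difference, 0.23, came from a probe that is placed over only 19 bases (chr6:125111848-125111866). Adjusted p in limma lay between 0.867 and 0.918. At the first 3′ end probe Gapdh read 7.50 and 7.81 in wild-type ears against 7.82 and 7.73 in mutant ears. Wild-type mouse 1 was the lowest of the 4 at 8 of 8 probes, by 0.17 to 0.33 below wild-type mouse 2. The mutant mean lay 0.19 to 0.39 above wild-type mouse 1 and between -0.04 and 0.06 from wild-type mouse 2. The 3 other probes with printed letters that are placed elsewhere or differ in bases gave the same sign, with 0.13 at the probe placed on chromosome 7, 0.21 at that placed on chromosome 8 and 0.10 at the last 3′ end probe. The probe in the damaged corner gave 0.11.

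Ldha, the muscle-type subunit of lactate dehydrogenase, was also lowest in wild-type mouse 1. At its brightest probe (chr7:54110937-54110996) it read 7.15 and 7.40 in wild-type ears against 7.44 and 7.46 in mutant ears. Over its 3 probes the log2 fold change was 0.13 to 0.19 with SE from 0.14 to 0.16 and adjusted p between 0.869 and 0.910. That mouse was the lowest at 3 of 3 probes, and without it the differences were -0.03 to 0.07. Pgk1, the phosphoglycerate kinase of somatic cells, read 4.87 and 5.07 in wild-type ears against 5.23 and 5.29 in mutant ears. The groups did not overlap, and its difference was 0.29 ± 0.13 (adjusted p = 0.795), or 0.19 without wild-type mouse 1.

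Wild-type mouse 1 was the lowest array at 16 of the 21 probes, against 32.9% of all probes tested. Without it the median log2 fold change of the 21 was 0.05, and without wild-type mouse 2 it was 0.28. It was 0.13 without mutant mouse 1 and 0.19 without mutant mouse 2. The 7 markers of stressed keratinocytes (Krt6a, Krt6b, Krt16, Krt17, Sprr1b, Sprr2d and Serpinb3a) were also lowest in wild-type mouse 1, at 7 of 7, and 6 of 7 were higher in the mutants without overlap, as were 18.9% of all genes. The log2 of their summed level was 9.25 and 9.92 in the wild-type mice and 10.2 in both mutants. For the 7 tested neutrophil markers it was 7.95 and 8.14 against 8.93 and 8.90, carried by S100a8 and S100a9, which keratinocytes also make, while the other 5 overlapped or, for Csf3r, were lower. The part of these cells in the glycolysis values was not tested.

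**Figure D3:**
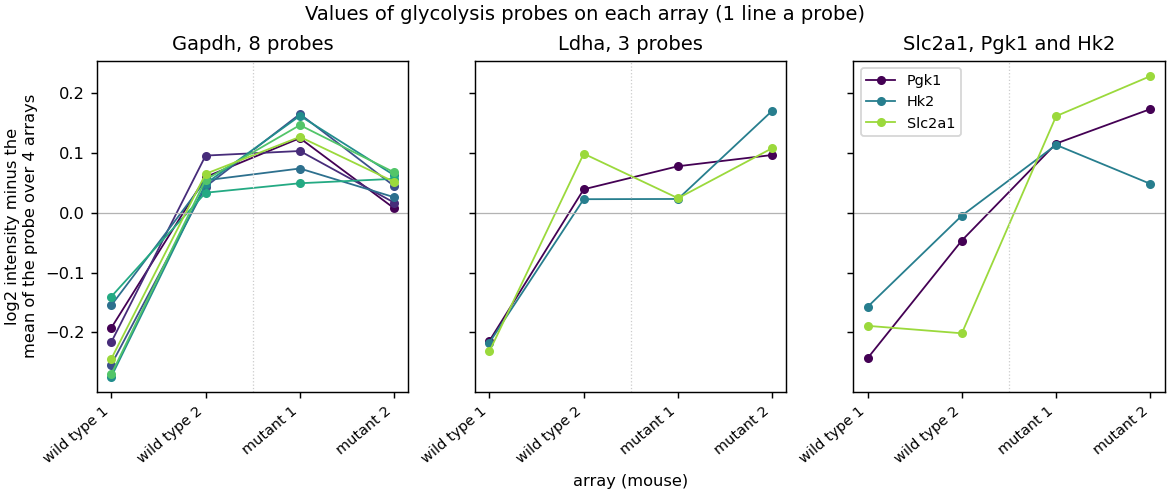
Level of each probe of Gapdh (8), Ldha (3), Slc2a1, Pgk1 and Hk2 on each array, minus the mean of that probe over the 4 arrays, in log2 units, with 1 line a probe. Wild-type mouse 1 is lowest for Gapdh, Ldha, Pgk1 and Hk2, whereas both wild-type mice are equally low for Slc2a1.

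The oxygen-regulated genes did not pass the test either. Hif1a read 1.29 and 1.48 in wild-type ears against 1.70 and 1.43 in mutant ears at its bright probe (chr12:75047269-75047329), a difference of 0.18 ± 0.15 (adjusted p = 0.882). Mutant mouse 2 lies between the wild-type mice. The dim probe of a Hif1a cDNA clone (chr12:75033965-75034024) gave -0.11 ± 0.18, so its 2 probes differ in sign. The array reads mRNA and does not show HIF-1 protein.

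Vegfa, which drives vessel growth and leakage in inflamed skin, was measured at 2 probes. The first (chr17:46162376-46162435) read -1.61 and -1.70 in wild-type ears against -1.30 and -1.40 in mutant ears. The difference there was 0.31 ± 0.12, with a 95% interval that reaches just below 0 to 0.61, and an adjusted p of 0.763. The other probe (chr17:46154387-46154446), which has 2 spots, gave 0.24 and 0.35 against 0.39 and 0.43, a difference of 0.11 ± 0.11 (adjusted p = 0.895). The 2 spots of that probe were 0.02 to 0.11 apart on an array, up to the size of the difference between the groups. Car9, a membrane carbonic anhydrase that is a textbook target of HIF-1, read -1.83 and -1.68 in wild-type ears against -1.70 and -1.79 in mutant ears (chr4:43526518-43526577). Its difference was 0.00 ± 0.12, with a 95% interval from -0.32 to 0.33 and the values of the groups interleaved.

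A core of 5 bases at which HIF-1 binds DNA, ACGTG, was searched for on both strands. The search covered the 250 bases before each gene start given by RefSeq (build GRCm38.p6). Overlapping matches such as CACGTG were counted once, and other forms of the core were not searched. The 10 genes have 14 such starts, and 9 starts of 8 genes hold the core, against 16.6% of all 32851 starts. The genes were chosen for glycolysis and the response to low oxygen, roles in which HIF-1 acts. A high share can follow from that choice and is no test. Ldha has 3 at 1 of its starts, Hk2, Hif1a and Pgk1 have 2, and Slc2a1, Car9, Pfkfb3 and 1 start of Vegfa have 1. No start of Gapdh or Gapdhs holds it in this window. The NF-kB consensus was found at 1 start, of Vegfa, against 3.90% of all starts. Slc2a1 (chr4:119108495-119108744, plus strand) and Pgk1 (chrX:106186850-106187099, plus strand) are printed as the 2 genes with the largest difference at their brightest probe after Gapdhs, and the first start of Gapdhs (chr7:30743682-30743931, minus strand) for contrast, with the core in capitals. A match is a description of letters and not a site of binding.
Slc2a1 upstream: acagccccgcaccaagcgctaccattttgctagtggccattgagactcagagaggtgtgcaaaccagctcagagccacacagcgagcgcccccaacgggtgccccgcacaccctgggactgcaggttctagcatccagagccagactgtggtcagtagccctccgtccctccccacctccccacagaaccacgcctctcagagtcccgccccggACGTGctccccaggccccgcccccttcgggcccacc
Pgk1 upstream: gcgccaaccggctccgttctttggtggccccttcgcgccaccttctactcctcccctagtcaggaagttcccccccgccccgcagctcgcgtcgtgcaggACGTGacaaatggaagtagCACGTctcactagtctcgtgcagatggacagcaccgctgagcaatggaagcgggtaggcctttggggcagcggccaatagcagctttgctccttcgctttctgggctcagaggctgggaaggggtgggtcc
Gapdhs upstream: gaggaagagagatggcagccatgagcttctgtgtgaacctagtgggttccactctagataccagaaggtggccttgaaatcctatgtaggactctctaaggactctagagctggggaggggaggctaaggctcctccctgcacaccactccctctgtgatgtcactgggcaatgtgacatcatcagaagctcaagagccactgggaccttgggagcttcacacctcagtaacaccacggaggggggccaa

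The rest of the pathways was described with 1 probe a gene, the brightest tested. Over all 23753 genes this left 4 (0.0168%) past an adjusted p of 0.05, with 18.9% higher and 17.4% lower without overlap, 53.5% higher by the mean, and a median log2 fold change of 0.01. In the lists that follow, 0 genes passed that threshold in limma. An unadjusted p under 0.05 was reached by 6.13% of all genes. It was reached by 2 other glycolytic enzymes, 2 transport genes, 1 gene of the HIF pathway, 6 HIF targets and 2 carbonic anhydrases. It was also reached by 2 sperm genes, 0 of the VEGF family and 0 reference genes. Of these sperm genes, Tekt1 was well above background on only 2 arrays and passed the filter through 1 group.

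Of 26 other enzymes of glycolysis 23 were tested, and 14 were higher and 9 lower by the mean. Of these, 11 and 6 did not overlap (18.9% and 17.4% of all genes). Their median log2 fold change was 0.08, and with each mouse left out in turn it lay between 0.03 (without mutant mouse 2) and 0.14 (without mutant mouse 1). Pfkl, the liver-type phosphofructokinase of the committed step, read 0.03 and -0.08 in wild-type ears against 0.52 and 0.59 in mutant ears (0.58 ± 0.11, adjusted p = 0.549). Hk3, a hexokinase of myeloid cells, was at 0.66 and 0.67 against -0.10 and 0.17 (-0.63 ± 0.14, adjusted p = 0.579). Pgam2, the muscle phosphoglycerate mutase, had -0.43 ± 0.24, with overlapping groups. The muscle isoforms Eno3 (-0.33 ± 0.20) and Pfkm (-0.29 ± 0.15) were lower by the mean too. Of 9 skeletal muscle markers 9 had lower means in the mutants, and the log2 of their summed level was 7.73 and 7.45 in the wild-type mice against 7.55 and 7.08, with the lowest in mutant mouse 2. Without that mouse the median of the muscle markers was 0.02. The part of muscle content in these 3 isoforms was not tested.

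Of 20 tested genes of glucose, lactate and pyruvate transport 6 were higher and 14 lower by the mean. Of these, 3 and 7 did not overlap (18.9% and 17.4% of all genes). Their median was -0.09, and it was -0.03 without wild-type mouse 1 or mutant mouse 2. Slc2a9, a urate and glucose carrier, had 0.38 ± 0.14 and Slc2a6, a lysosomal carrier of myeloid cells, -0.35 ± 0.12. Pdk1, which shuts pyruvate out of mitochondrial oxidation and is a target of HIF-1, had 0.27 ± 0.11, with -0.04 and -0.07 in the wild-type mice and 0.26 and 0.17 in the mutants. None of these 3 overlapped between the groups, and their adjusted p were 0.753, 0.748 and 0.786.

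Of 12 genes of the HIF pathway 7 were higher and 5 lower by the mean. Of these, 2 and 2 did not overlap (18.9% and 17.4% of all genes). Their median was 0.01, and it ran from -0.07 to 0.08 with each mouse left out. Egln3, a prolyl hydroxylase that marks HIF for destruction and is itself induced by it, had the largest difference, with 0.57 and 0.25 in the wild-type mice and 1.02 and 2.09 in the mutants. The difference of 1.14 ± 0.38 (adjusted p = 0.725) was 1.32 at its other probe, and mutant mouse 2 lay farther above mutant mouse 1 than that mouse lay above either wild-type mouse. Egln1, the main oxygen sensor, had 0.37 ± 0.21, and Arnt2, a partner of HIF, -0.15 ± 0.32.

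Of 30 other targets of HIF 29 were tested, and 21 were higher and 8 lower by the mean. Of these, 13 and 4 did not overlap (18.9% and 17.4% of all genes). The median was 0.05, and leaving out wild-type mouse 1 gave 0.21, mouse 2 of that group 0.01, mutant mouse 1 0.11 and mutant mouse 2 0.18. Besides Egln3, which stands in both lists, the leading genes were Car12 and Fam162a. Car12, a membrane carbonic anhydrase like Car9, read 2.92 and 3.57 in wild-type ears against 3.76 and 4.08 in mutant ears (0.67 ± 0.26, adjusted p = 0.770). Fam162a, a mitochondrial protein, was at 4.16 and 4.33 against 4.79 and 4.94 (0.62 ± 0.13, adjusted p = 0.561). Higd1a (0.58 ± 0.16, and 0.64 at its other probe) and Edn1 (0.40 ± 0.13) were also higher without overlap. Targets with the opposite sign included Plin2, a coat protein of lipid droplets (-0.37 ± 0.12), and Hmox1, the haem oxygenase (-0.35 ± 0.12). Together with Egln3 and Fam162a, these are the 6 targets that reached an unadjusted p under 0.05 in limma.

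Of 9 genes of the VEGF family and its receptors 4 were higher and 5 lower by the mean. Of these, 1 and 2 did not overlap (18.9% and 17.4% of all genes). Their median was -0.06, and it was 0.03 without wild-type mouse 1. Pgf, a placental growth factor that binds Flt1, had -0.27 ± 0.15, the coreceptor Nrp2 -0.18 ± 0.11 and the receptor Flt1 0.17 ± 0.19. Of 12 tested carbonic anhydrases other than Car9, 8 were higher and 4 lower by the mean, 5 and 1 of them without overlap. Car6, a secreted form of glands, had 0.98 ± 0.70 with overlapping groups, since only mutant mouse 2, at 1.98, was high. Car3, a muscle and fat form, had -0.55 ± 0.19, and Car12 is given above.

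Of 13 common reference genes 7 were higher and 6 lower by the mean. Of these, 4 and 1 did not overlap (18.9% and 17.4% of all genes). Their median was 0.04 and, with each mouse left out in turn, between -0.04 and 0.06. The highest were Pgam1 (0.36 ± 0.16), which also stands in the glycolysis list, and Tfrc (0.32 ± 0.15), the transferrin receptor, which also stands among the HIF targets. At the brightest probe the other 11 lay between B2m at -0.14 ± 0.14 and Sdha at 0.13 ± 0.12. The probes of Tfrc ranged from 0.03 to 0.39 and those of Ywhaz from -0.05 to 0.29. Other probes of Tbp and Rpl13a reached 0.16 and 0.15, and another of Gusb -0.15.

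**Figure D4:**
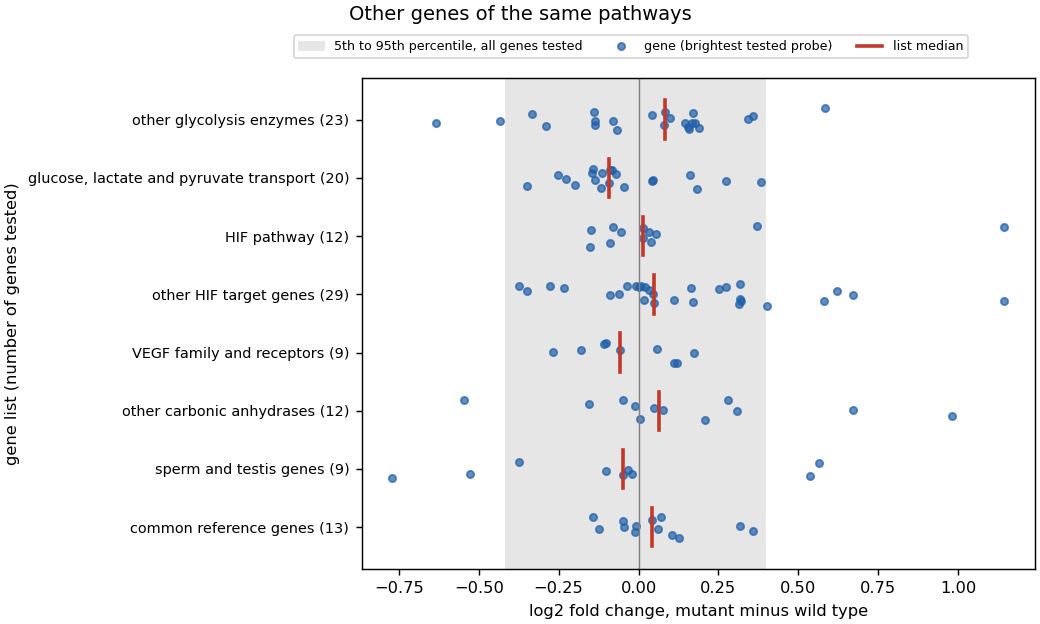
Log2 fold change, mutant minus wild type, of each tested gene (blue, its brightest tested probe) in 8 lists of related genes, with the list median (red) and the band from the 5th to the 95th percentile of all genes tested (grey, -0.41 to 0.39). The medians lie between -0.09 and 0.08, and single genes such as Egln3 at 1.14 lie outside the band.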

How the data were processed

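Per the file headers, the deposited processed intensities are background-subtracted and detrended, dim spots hold surrogates, arrays were not scaled to each other, and probe positions are on mm9. The software was Agilent Feature Extraction 10.7.3.1. The raw mean signals and local backgrounds are uncorrected deposited intensities, and the flags per spot are deposited values of 0 or 1 (a further column holds the surrogate). All 4 arrays share 1 slide and scan. The deposited series table holds linear ratios, each spot divided by its array's median. It matched the scanner values within 1.5e-05 on the log2 scale. Labelling started from 100 ng of RNA per sample, per the labels.

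The 3671 control spots and outlier-flagged spots were left out, each array was scaled to its 75th percentile (588.7 to 663.5 in intensity), and spots of a probe were averaged. Probes with a value on all arrays were tested when well above background on both arrays of a group: 33664 probes, 60.6%. Limma 3.58.1 (lmFit, eBayes) in R 4.3.3 compared the groups, two-sided, adjusted by Benjamini and Hochberg over all tested probes at 0.05, and was tested on simulated data. Residual degrees of freedom were 2, prior 2.55. The accession of 20455 tested probes matched RefSeq, and these took its current symbol. Figures used matplotlib 3.10.9.

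Members and lists were chosen with earlier results of these data known. Named are all members, up to 3 genes of each list with the largest difference, 3 neighbours on each side of Gapdhs and the 4 genes most like it. Eno3, Pfkm, Prm2, Tnp1, Plin2, Hmox1, Higd1a and Edn1 were added after their values were seen. Marker lists of further cell types (other than those given in the text) had these medians of the log2 fold change: epidermal keratinocytes 0.10, macrophages -0.14, T cells -0.16, endothelium -0.12, adipocytes -0.30, red blood cells -0.58, cartilage -0.03 and fibroblasts 0.04. Leaving out 1 mouse turned the sign for red blood cells (-1.21 to 0.05), cartilage (-0.22 to 0.15) and fibroblasts (down to -0.04). Alternatives were another background correction, scalings, filters and variance models, the damaged corner left out, 1 probe a gene, array weights, replicate blocks and each mouse left out.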

Additional observations from a re-analysis of the deposited data

How the results depend on the processing

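The number of probes called among all, 7 (4 higher, 3 lower), was 1 with no filter on dim probes, 2 with probes above background on all 4 arrays, 4 with 1 probe a gene and 35 with eBayes with trend and robust. Leaving out each mouse in turn gave 0 to 162 (0 without wild-type mouse 1 or 2, 1 without mutant mouse 2, and 162 without mutant mouse 1, where the damaged array stands alone for its group). A fit without 1 mouse leaves a single mouse in its group, and the part of the damage in these calls was not tested. The number among the 23 member probes was 0, and 2 with normexp background correction and with eBayes with trend and robust. Both were of Gapdhs, which was chosen for this difference. It was 0 under the other alternatives, leave-outs included, and no gene of the other lists was called under any alternative. Of 377 values of the 23 probes under 17 alternatives, 11 changed sign, all at probes within their error of 0. Without wild-type mouse 1 these were 2 Gapdh probes (-0.036 and -0.0043, up to 0.276 and 0.205 with another mouse left out), 1 Ldha probe (-0.033, up to 0.298) and Car9 (-0.073, up to 0.079). Car9 was also -0.011 with scaling on probes detected on every array and -0.04 without mutant mouse 1. The dim Hif1a probe was 0.084 with normexp background correction, 0.0040 without wild-type mouse 2, 0.077 without mutant mouse 2 and -0.306 without mutant mouse 1. The dim Pfkfb3 probe was -0.20 without wild-type mouse 2 and -0.09 without mutant mouse 1, up to 0.297 without wild-type mouse 1. For the 9 genes other than Gapdhs the lowest adjusted p under any alternative was 0.418. The labels number the mice 1 and 2 in both groups without saying what that means. The deviations of same-numbered mice were weakly and negatively correlated (r = -0.16 across probes). With the number as a replicate block 1 probe was called, as with the crossed pairing, chosen after seeing the data. The 2 mice a group limit the precision, and so does signal near background for the dim probes.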
